A study of Mus musculus with 8 samples.

Results

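Leptin, adiponectin and other adipokines, with the receptors through which leptin and adiponectin act, were followed mouse by mouse in ovarian RNA of obese LY mice treated with pioglitazone or vehicle. The 9 genes considered were the hormone genes Lep (leptin), Adipoq (adiponectin), Rbp4 (retinol binding protein 4), Nampt (visfatin) and Cfd (adipsin), the adipocyte fatty acid binding protein gene Fabp4, and the receptor genes Lepr, Adipor1 and Adipor2. They were chosen by gene symbol in the annotation of the array. Of the 9 genes, 6 had a probe assigned to that gene alone (Lep, Adipoq, Fabp4, Rbp4, Nampt and Adipor2), with 1 probe each, out of 18069 genes named in all. Lepr and Cfd had no probe under their symbol, and the 1 probe of Adipor1 was also assigned to Iapp, so these 3 genes were not analysed here.

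Female LY mice (C57BL/6J Ay/a) are heterozygous for the lethal yellow allele of agouti, and all mice in both groups carried it. Mice in the pioglitazone group (n = 4) were gavaged daily with the drug dissolved in DMSO, and mice in the vehicle group (n = 4) with DMSO alone, over 60 days, starting at 120 days and ending at 180 days of age. The daily dose was 0.1 mg by the design text. A lower dose stands in the methods, and which was used is not settled here. BL mice, which the study also examined, were not analysed here. The lethal yellow allele is active in most tissues, and the obesity and insulin resistance of these mice are traits of the whole animal. Both ovaries were trimmed of fat, and RNA of 1 ovary per mouse was hybridised to 1 CodeLink array, with no pooling, so that there was no technical replicate of any mouse.

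Leptin is secreted by adipocytes in proportion to fat mass and signals through a cytokine receptor, JAK2 and STAT3, while adiponectin is secreted by adipocytes in insulin-sensitive states and acts through AdipoR1 and AdipoR2, which engage AMPK and PPARα signalling. Fabp4 and Adipoq are classic targets of PPARγ, the receptor that thiazolidinediones such as pioglitazone bind, and PPARγ is also found in granulosa cells of the ovary. Receptors for leptin and adiponectin are known in ovarian cells, whereas the hormones themselves come mainly from fat, which lies against the mouse ovary.

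Promoter sequence was read from RefSeq (GRCm38.p6) for Lep and Adipoq, the hormones with the widest spread between mice, and for Retn (resistin, an adipocyte hormone in the mouse), which followed Adipoq across mice. The 250 bases before the start of each gene are printed 5′ to 3′ and capitals mark matches on either strand to TTGCNNAA (the C/EBP motif), CCAAT (the CCAAT box), AGGTCA (the PPAR half-site) or TATAAA (the TATA box).
Lep promoter, chr6:29059971-29060220, plus strand: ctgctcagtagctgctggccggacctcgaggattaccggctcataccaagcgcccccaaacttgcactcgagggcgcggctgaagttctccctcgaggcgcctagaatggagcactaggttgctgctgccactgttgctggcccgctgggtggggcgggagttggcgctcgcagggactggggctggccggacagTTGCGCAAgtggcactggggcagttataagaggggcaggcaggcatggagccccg
Adipoq promoter, chr16:23146286-23146535, plus strand: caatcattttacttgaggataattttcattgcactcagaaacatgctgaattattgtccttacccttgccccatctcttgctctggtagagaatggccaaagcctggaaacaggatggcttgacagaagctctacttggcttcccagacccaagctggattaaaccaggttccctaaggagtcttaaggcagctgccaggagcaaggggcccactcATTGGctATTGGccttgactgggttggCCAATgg
Retn promoter, chr8:3655520-3655769, plus strand: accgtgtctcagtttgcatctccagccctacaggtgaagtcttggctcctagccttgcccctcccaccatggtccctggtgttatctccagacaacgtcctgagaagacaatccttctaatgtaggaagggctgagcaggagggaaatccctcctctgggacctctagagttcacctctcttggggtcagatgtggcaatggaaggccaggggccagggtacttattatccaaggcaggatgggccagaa

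The Lep window held 1 match to the C/EBP motif, starting at position -55, and the Adipoq window held 3 matches to the CCAAT box, all in its last bases before the start. The Retn window held none of the 4 motifs. Among 32851 promoter windows of the same length, 9.56% held the C/EBP motif, 33.8% the CCAAT box, 14.0% the PPAR half-site and 12.4% the TATA box. A direct repeat of the half-site with 1 base between its copies, the full PPAR motif, was found in 0.0335% of windows and in none of these 3. These matches describe letters only.

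Values are linear intensities corrected for background and divided by the median of the array, called relative intensity units, in which 0.2 is the limit of sensitivity given in the methods. Each array carried 36227 probes, of which 82.5% to 83.9% reached 0.2, and 47 to 211 spots per array were missing. Pioglitazone and vehicle mice were compared by limma on log2 values over 30634 probes. Of these, 5.5% were at unadjusted p under 0.05 and 0 passed an adjusted p of 0.05, while the methods' t-test called 2130 probes unadjusted and also 0 after adjustment. The number of arrays limits the precision.

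None of the 6 genes differed between pioglitazone and vehicle beyond the spread between mice: 0 of 6 were at unadjusted p under 0.05 in limma, against 5.5% of all probes, and the smallest adjusted p was 0.837 (Adipor2). Their median log2 fold change was -0.05, beside -0.03 over all probes tested. Lep, Adipoq, Fabp4 and Rbp4 had their highest value in the same animal, pioglitazone mouse 1, and Adipor2 alone had a narrow spread in both groups.

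**Figure D1:**
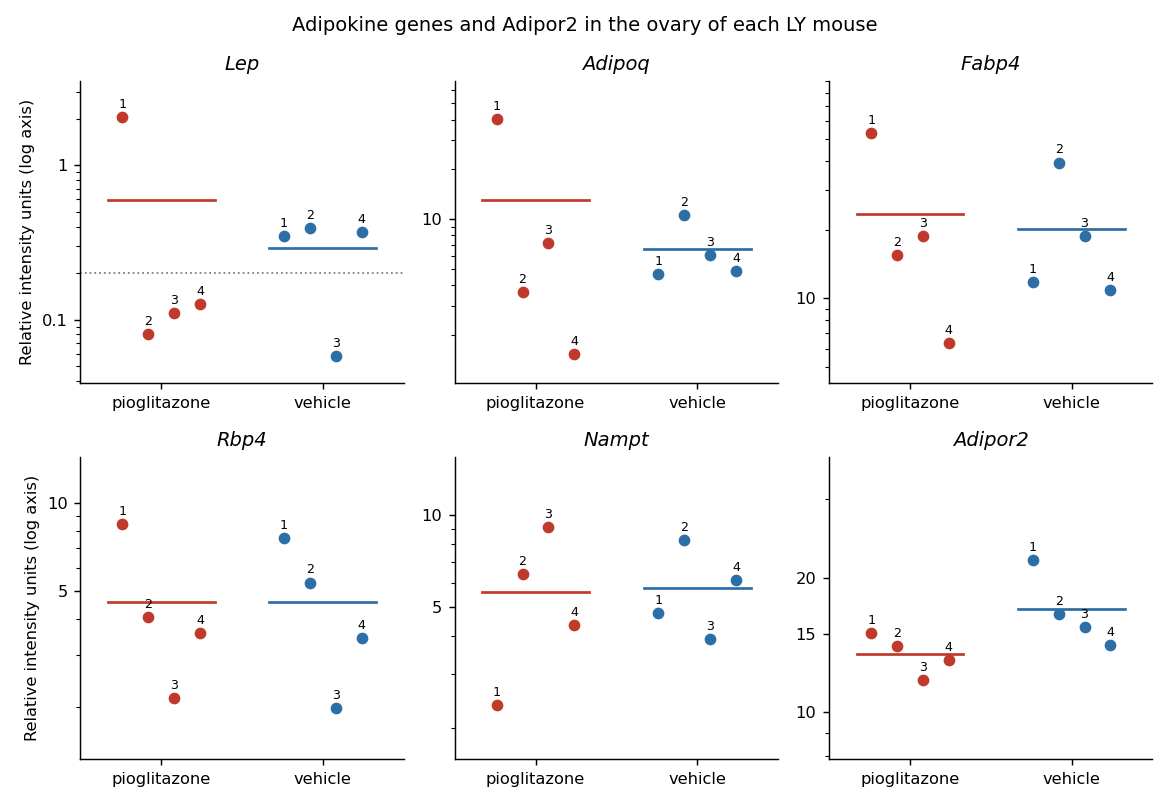
Relative intensity units (log axes, 1 panel per gene) of Lep, Adipoq, Fabp4, Rbp4, Nampt and Adipor2 in pioglitazone-treated and vehicle-treated LY mice. Points are mice with their numbers, horizontal lines are arithmetic group means and the dotted line in the Lep panel is the limit of 0.2. Pioglitazone mouse 1 was the highest mouse for Lep (2.06), Adipoq (40.2), Fabp4 (53.0) and Rbp4 (8.47) and the lowest for Nampt (2.37).

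Leptin was near the limit of sensitivity in most ovaries. Lep was at 2.06, 0.0803, 0.110 and 0.126 relative intensity units in pioglitazone mice 1 to 4, and at 0.350, 0.392, 0.0580 and 0.372 in vehicle mice 1 to 4. In the pioglitazone group 3 of 4 mice were thus under 0.2, below 3 of the 4 vehicle mice, while mouse 1 was above every vehicle mouse, and the groups overlapped. The group means were 0.595 ± 0.979 with pioglitazone and 0.293 ± 0.157 with vehicle (SD, n = 4 each). The ratio of these means was 2.03. On the log2 scale the fold change was -0.09, with a 95% interval from -2.42 to 2.23 (standard error 1.03, adjusted p = 0.992 in limma). An exact permutation test, 2-sided over all 70 ways to split the mice, gave p = 1.0, where the smallest p that 4 against 4 mice allow is 0.0286. Without pioglitazone mouse 1 the log2 fold change was -1.17 (unadjusted p = 0.0999, adjusted p = 0.613 in limma). There the 3 remaining pioglitazone mice averaged 0.105 ± 0.023 (SD, n = 3), all under the limit, as was vehicle mouse 3, so that the fitted value is no measure of a fold. Without any 1 of pioglitazone mice 2, 3 and 4 and vehicle mice 1, 2 and 4 the log2 fold change was positive, from 0.10 to 0.39, and without vehicle mouse 3 it was -0.76.

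Adiponectin was measured well above the limit in every ovary. Adipoq was at 40.2, 3.62, 7.19 and 1.54 in pioglitazone mice 1 to 4, and at 4.71, 10.7, 6.11 and 4.88 in vehicle mice 1 to 4. Both the highest and the lowest of the 8 mice were in the pioglitazone group, with a 26.1-fold distance between them, whereas 3 of the 4 vehicle mice lay between 4.71 and 6.11. Means were 13.1 ± 18.2 with pioglitazone and 6.59 ± 2.79 with vehicle (SD, n = 4 each). The coefficient of variation of Adipoq was 138% in the pioglitazone group and 42.3% in the vehicle group. Its log2 fold change was 0.03 (standard error 0.84, 95% interval -1.86 to 1.91, adjusted p = 0.998 in limma), and the exact permutation p was 1.0. Without pioglitazone mouse 1 the log2 fold change of Adipoq was -0.86 (unadjusted p = 0.12 in limma), with a mean of 4.12 ± 2.86 with pioglitazone (n = 3) and 6.59 ± 2.79 with vehicle (n = 4).

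Fabp4, which carries fatty acids inside adipocytes and is also made by macrophages and endothelial cells, showed the same order of mice at both ends. It was at 53.0, 15.5, 18.8 and 6.35 in pioglitazone mice 1 to 4, and at 11.8, 39.5, 18.7 and 10.9 in vehicle mice 1 to 4. Vehicle mouse 2 was the second highest mouse for Fabp4, as it was for Adipoq, and pioglitazone mouse 4 the lowest for both. Means were 23.4 ± 20.4 with pioglitazone and 20.2 ± 13.3 with vehicle, a log2 fold change of 0.01 (standard error 0.62, 95% interval -1.39 to 1.41, adjusted p = 0.999 in limma). Leaving out pioglitazone mouse 1 gave -0.52, leaving out vehicle mouse 2 gave 0.40 and leaving out pioglitazone mouse 4 gave 0.50, and none of these was at unadjusted p under 0.05.

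Rbp4, the carrier of retinol in blood and an adipokine linked to insulin resistance, was at 8.47, 4.07, 2.14 and 3.59 in pioglitazone mice 1 to 4, and at 7.59, 5.33, 1.99 and 3.43 in vehicle mice 1 to 4. The groups had nearly the same mean, 4.57 ± 2.73 with pioglitazone and 4.59 ± 2.43 with vehicle. Both groups had the same order by mouse number for Rbp4, from mouse 1 at the top through mice 2 and 4 to mouse 3. The log2 fold change was -0.02 (standard error 0.48, adjusted p = 0.998 in limma), with a 95% interval from -1.10 to 1.07.

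Nampt, the enzyme that makes nicotinamide mononucleotide for NAD synthesis and is also secreted as visfatin, was at 2.37, 6.39, 9.14 and 4.36 in pioglitazone mice 1 to 4, and at 4.75, 8.30, 3.92 and 6.11 in vehicle mice 1 to 4. Unlike Lep, Adipoq, Fabp4 and Rbp4 it was lowest in pioglitazone mouse 1, at 0.388 times the median of the other 7 mice. Means were 5.57 ± 2.89 with pioglitazone and 5.77 ± 1.91 with vehicle, and the log2 fold change was -0.16 (standard error 0.40, adjusted p = 0.955 in limma), with a 95% interval from -1.06 to 0.74.

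The adiponectin receptor gene Adipor2, which encodes a membrane receptor with ceramidase activity, had the smallest spread. Its values were 15.03, 14.1, 11.8 and 13.1 in pioglitazone mice 1 to 4, and 22.0, 16.6, 15.5 and 14.2 in vehicle mice 1 to 4. Only vehicle mouse 4 lay within the pioglitazone range, and the other 3 vehicle mice were above all 4 pioglitazone mice. Means were 13.5 ± 1.4 with pioglitazone and 17.1 ± 3.4 with vehicle (SD, n = 4 each), a ratio of 0.791. The log2 fold change was -0.32 (standard error 0.17, 95% interval -0.71 to 0.06), with an unadjusted p of 0.0884 and an adjusted p of 0.837 in limma and an exact permutation p of 0.0571. It stayed negative with each mouse left out in turn, from -0.41 (without vehicle mouse 4) to -0.19 (without vehicle mouse 1), and blocking on the replicate number gave an unadjusted p of 0.0564. The difference did not pass the test, and its interval includes 0.

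**Figure D2:**
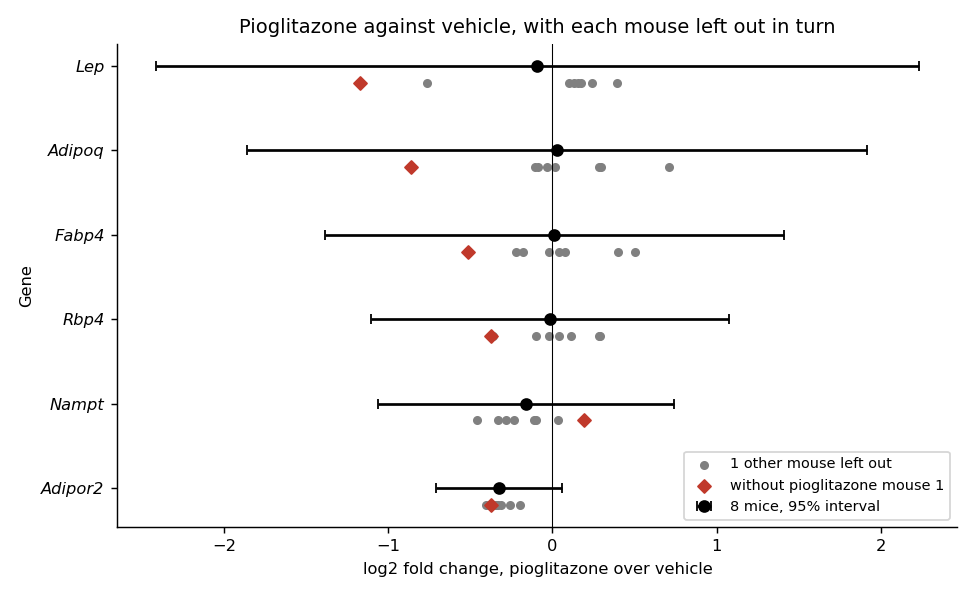
Log2 fold changes (horizontal axis, pioglitazone over vehicle) of the 6 genes. Black points are limma estimates from all 8 mice with 95% intervals, grey points leave out 1 mouse, and red diamonds leave out pioglitazone mouse 1. Every interval includes 0, and leaving out pioglitazone mouse 1 moved Lep to -1.17, Adipoq to -0.86 and Nampt to 0.19, while Adipor2 was at -0.38.

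Among the 15 pairs of these 6 genes, 1 pair was correlated across mice after adjustment. Log2 values of Adipoq and Fabp4 had Pearson's r = 0.932 over 8 mice (exact permutation p = 0.00067, adjusted p = 0.010) and Spearman's rho = 0.905 (exact permutation p = 0.00456, adjusted p = 0.0684). Without pioglitazone mice 1 and 4, the mice farthest from the median of Adipoq, r was 0.844, and on deviations from the group means it was 0.932. With 1 mouse left out, r of this pair ran from 0.894 to 0.961, but its adjusted p no longer passed 0.05 without pioglitazone mouse 1 or 4 or vehicle mouse 2. Lep and Adipoq had r = 0.718 (exact permutation p = 0.0539, adjusted p = 0.27) and rho = 0.50 (exact permutation p = 0.216, adjusted p = 0.831), with r = 0.453 once pioglitazone mouse 1 and vehicle mouse 3 were left out. For Lep and Rbp4, r was 0.805 (exact permutation p = 0.0156, adjusted p = 0.117) and rho 0.714 (exact permutation p = 0.0576, adjusted p = 0.432), with r = 0.567 without the same mice. Nampt had negative r with each of the other 5 genes, from -0.443 (Lep) to -0.169 (Fabp4), none of which passed the adjusted test. Without the 2 mice farthest from the median, r was positive for 4 of these pairs, 0.462 with Adipoq, 0.460 with Fabp4, 0.276 with Rbp4 and 0.162 with Adipor2, and -0.057 with Lep.

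**Figure D3:**
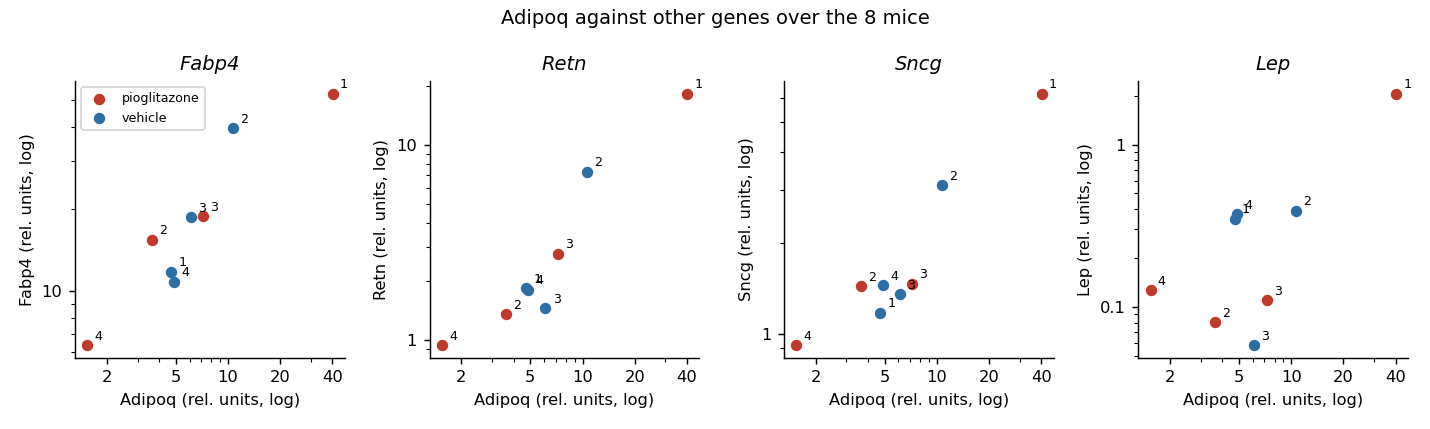
Relative intensity units of Fabp4, Retn, Sncg and Lep (vertical log axes) against Adipoq (horizontal log axes), with 1 point per mouse, numbered and coloured by group. Pioglitazone mouse 1 lies at the upper right of every panel (Adipoq 40.2, Retn 18.3, Sncg 6.21), and vehicle mouse 2 is second for Adipoq in all of them (10.7, with Retn at 7.29 and Sncg at 3.10).

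Pioglitazone mouse 1 stood highest for 4 of the 6 genes and lowest for Nampt. It was the highest of the 8 mice and at least 2-fold above the median of the other 7 for those 4, a pattern found in 0.918% of all tested probes with 8 values. It was at 8.24 times that median for Adipoq, 3.42 for Fabp4, 2.36 for Rbp4 and 1.06 for Adipor2. For Lep the median of the other mice was under the limit, and pioglitazone mouse 1 was at 10.3 times the limit. Of 26 other adipokines 4 were highest in that mouse, 6 in vehicle mouse 2. Being the highest mouse by any margin was common for pioglitazone mouse 1, with 21.1% of probes, and vehicle mouse 2 was the highest for 9.55%. Pioglitazone mouse 1 was first and vehicle mouse 2 second for 3 of the 6 genes (Lep, Adipoq and Fabp4), an order seen in 1.66% of probes, although for Lep vehicle mice 1, 2 and 4 lay close together. These mice were singled out after the values of the same genes were seen, and Adipoq and Fabp4 varied together. The shares over all probes are therefore a description and no test.

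Adipocyte markers were examined beside these values. Of 25 markers, 21 had a named probe, of which 11 were highest in pioglitazone mouse 1 and 7 were also at least 2-fold above the median of the other 7 mice there. Those 7 were Retn, Orm1 (an acute phase protein of liver and fat), Sncg (synuclein gamma, abundant in adipocytes), Aqp7 (the glycerol channel of adipocytes), Pck1 (an enzyme of glyceroneogenesis), Adig (adipogenin) and Slc7a10 (an amino acid transporter of adipocytes). For Aqp7 and Slc7a10 that median was under the limit, and pioglitazone mouse 1 was at 2.19 and 1.80 times the limit. Retn was at 18.3, 1.36, 2.78 and 0.944 in pioglitazone mice 1 to 4, and at 1.84, 7.29, 1.46 and 1.81 in vehicle mice 1 to 4, so that the pioglitazone and vehicle groups each had 1 mouse far above the rest. Sncg was at 6.21, 1.44, 1.47 and 0.920 in pioglitazone mice, and at 1.18, 3.10, 1.36 and 1.45 in vehicle mice. The same mice, pioglitazone mouse 1 and vehicle mouse 2, stood first and second for Retn, Sncg and Aqp7. For Aqp7 the second place means little, since vehicle mouse 2 (0.206), pioglitazone mouse 4 (0.201) and vehicle mouse 3 (0.196) all lay at the limit.

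Other genes of lipid-storing cells did not share this order. Pnpla2 (adipose triglyceride lipase) was lowest in pioglitazone mouse 1, at 0.390, while the other pioglitazone mice were between 1.31 and 2.53 and the vehicle mice between 0.941 and 3.23. Plin4, a lipid droplet protein, was highest in vehicle mouse 3 (3.99), and Fasn (fatty acid synthase) in vehicle mouse 1 (20.9). Of the defining markers, Plin1 and Adrb3 had no named probe, Cidec (a lipid droplet protein) was at 6.41 to 11.3 with pioglitazone and 8.25 to 11.1 with vehicle, and Adig was at 0.316 to 0.680 with pioglitazone and 0.154 to 0.388 with vehicle. No marker on the list was under 0.2 in all 8 mice, but Lipe (hormone-sensitive lipase) reached it in vehicle mouse 1 alone, at 0.308. In pioglitazone mouse 1 Lipe was at 0.0505. The summed level of the 21 markers was 53.4 to 115 with pioglitazone and 65.1 to 83.3 with vehicle, with pioglitazone mouse 1 at 115. None of the 19 markers tested was at unadjusted p under 0.05 in limma with all mice. Log2 fold changes were positive for 15 of 19, with a median of 0.13, where 13582 of all 30634 probes were positive. Pioglitazone mouse 1 was the highest mouse for 11 of the 21 markers. Cidea and Slc7a10 were tested only through their pioglitazone means (0.211 and 0.213, against 0.1545 and 0.1855 with vehicle). Without pioglitazone mouse 1, 3 were called, all lower, Cidec, Fasn and Pcx (pyruvate carboxylase), where 7.98% of all probes were called. Under the replicate block 3 were called, Cidea and Thrsp higher and Fasn lower, where 8.6% of all probes were called. Of these, Cidea lay near the limit, with 2 of 4 pioglitazone and 3 of 4 vehicle mice under 0.2. Ucp1, the defining gene of brown fat, was under 0.2 in all 8 mice.

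**Figure D4:**
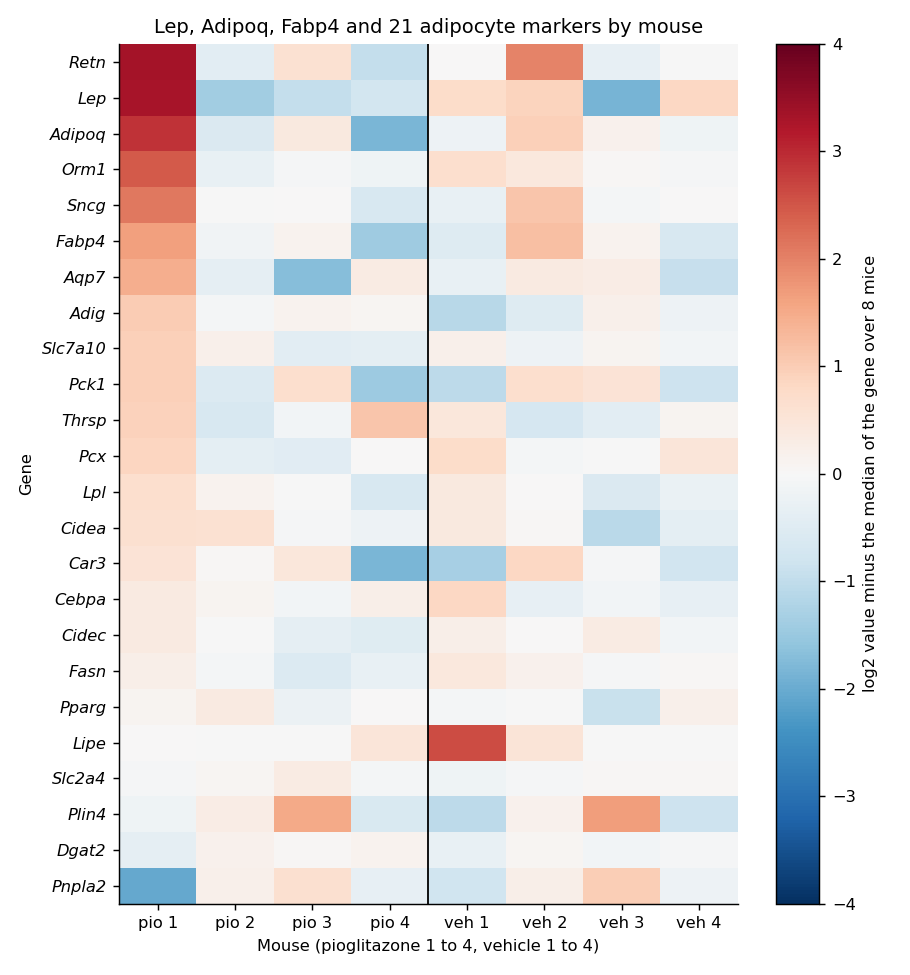
Log2 values of Lep, Adipoq, Fabp4 and 21 adipocyte markers (rows) in each mouse (columns, pioglitazone then vehicle), as differences from the median of the gene over the 8 mice, ordered by pioglitazone mouse 1. Values under 0.05 were raised to 0.05. Red is higher and blue lower than the median. Retn, Lep, Adipoq, Orm1, Sncg and Fabp4 stand highest in pioglitazone mouse 1, and Pnpla2 is lowest there.

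Markers of other cells also differed in pioglitazone mouse 1. The summed level of 6 luteal markers (among them Star and Cyp11a1) was 133 in that mouse, 239 to 330 in the other pioglitazone mice and 263 to 378 in vehicle mice, and 5 of the 6 were lowest in pioglitazone mouse 1. Hsd3b1, at 113 in pioglitazone mouse 1, made up most of this sum, with Star at 6.40 and Cyp11a1 at 10.7 there. Across 6 macrophage markers the sum was 11.2 in that mouse, 25.6 to 36.3 in the other pioglitazone mice and 20.1 to 41.2 in vehicle mice. Lyz2 (lysozyme), at 8.87 in that mouse, made up most of this sum, and 2 of the 6 macrophage markers, Lyz2 and Mrc1, were lowest there. The sum of 9 oocyte markers was highest in pioglitazone mouse 1, at 125.5, with the other pioglitazone mice at 75.2 to 102 and vehicle mice at 73.1 to 112. Bmp15 had values only in pioglitazone mice 3 and 4 and added nothing to the other sums. Zp3 made up 62.8 of the sum in pioglitazone mouse 1. There 4 of the 9 oocyte markers were highest and 2, Gdf9 and Nlrp5, were lowest. The part of adipocyte, luteal, macrophage or oocyte RNA in the values of Lep, Adipoq and Fabp4 was not tested. In RNA of a whole ovary, fewer cells of a type and less RNA per cell cannot be told apart. Of 9 granulosa markers 1 (Inhbb) was under 0.2 in all 8 mice, and 9 of 9 oocyte markers, 6 of 6 luteal markers and 7 of 7 theca and stroma markers reached 0.2 in at least 1 mouse.

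Of the other marker lists, luteal genes had negative log2 fold changes in 6 of 6 tested, with a median of -0.78, and granulosa genes positive ones in 8 of 8, with a median of 0.32, where 17052 of all 30634 probes were negative and 13582 positive. Calls at unadjusted p under 0.05 in limma numbered 1 of 8 granulosa genes and 1 of 7 theca and stroma genes (higher, against 1.97% of all probes), and 1 of 8 oocyte, 1 of 6 endothelial and 1 of 6 oviduct and surface epithelium genes (lower, against 3.53%). There were 0 calls among 6 luteal, 6 macrophage, 6 brown adipocyte and 2 red blood cell genes.

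Genes whose pattern over the 8 mice was most like that of each adipokine were ranked by Pearson's r of log2 values among 16009 named genes, as a description. For Adipoq these were Myh10 (a non-muscle myosin, r = 0.953), Retn (0.944), the chemokine gene Cxcl2 (0.943), Sncg (0.938) and Oacyl (0.934), of which Myh10 and Cxcl2 averaged only 0.227 and 0.226 relative intensity units over the 8 mice, close to the limit. For Fabp4 they were Sun5 (0.957), Adipoq (0.932), Phlda3 (0.927), Sncg (0.926) and Saa3, an acute phase protein of fat and macrophages (0.919). Sun5 averaged 0.2325 relative intensity units, also close to the limit. Without pioglitazone mouse 1, r with Adipoq was 0.850 for Retn and 0.820 for Sncg. Lep was most like Mrpl57 (0.970), Iars (0.970), Cfap20 (0.957), Arfip2 (0.951) and Camkk2 (0.950), and none of these 5 is a marker on the adipocyte list. The Lep values of 3 pioglitazone mice and 1 vehicle mouse were under the limit, so this ranking cannot show which kind of gene Lep resembles. The nearest genes to Rbp4 were D830012I24Rik (0.986), Vpreb1, Efcab2, Creg1 and Ccdc130, those to Nampt were Akap1 (0.993), Mllt3, Mtfr1l, Trappc13 and Impa1, and those to Adipor2 were Cd300ld (0.981), Ucn2, Gabrr2, Arhgap35 and Defb1. The number of genes with r of at least 0.9 differed between them, 231 for Nampt, 214 for Rbp4, 71 for Lep, 40 for Adipor2, 15 for Adipoq and 9 for Fabp4. The points share the arrays and their scaling, and with 8 mice high values of r arise among many genes.

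Genes of the pathways around the adipokines were described by list. Of 110 such genes tested in 8 lists, 7 were at unadjusted p under 0.05 in limma (6.36%, against 5.5% of all probes), 3 higher (1.97% of all probes) and 4 lower (3.53%) with pioglitazone, and 0 passed an adjusted p of 0.05 (0.837 for each of the 7). Under the replicate block 12 were called (8.6% of all probes), 6 of them among the 7. Without pioglitazone mouse 1 it was 11 (7.98% of all probes), and without pioglitazone mouse 4 or vehicle mouse 1 it was 3 each, in both cases Retnla, Angptl4 and Rara. Calls gained with 1 mouse left out included Cd55 (without pioglitazone mouse 2 or 3 or vehicle mouse 4), Aldh1a2 and Tgfb1 (without pioglitazone mouse 3 or vehicle mouse 4), Serpina12 (without vehicle mouse 4) and Hc (without vehicle mouse 2).

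Leptin signals through Jak2, Stat3 and the insulin receptor substrates, and Socs3 is its feedback inhibitor. Of 13 tested genes of this list 0 were called, with a median log2 fold change of 0.06. The smallest p was that of Pik3r1, the regulatory subunit of phosphatidylinositol 3-kinase, with means of 34.7 ± 3.4 with pioglitazone and 29.0 ± 6.8 with vehicle (log2 fold change 0.29, unadjusted p = 0.173 in limma). Pik3r1 was called with quantile normalization (0.38, unadjusted p = 0.023), and without vehicle mouse 3 its log2 fold change was 0.12. Jak2, the kinase bound to the leptin receptor, had means of 1.82 ± 0.31 with pioglitazone and 1.54 ± 0.59 with vehicle, with vehicle mouse 3 at 0.661. Ptpn11 (the phosphatase SHP2) and Stat5a had log2 fold changes of -0.44 and -0.55, neither of which passed the test with all mice. Without pioglitazone mouse 1, Ptpn11 was called at -0.74 (unadjusted p = 0.0441 in limma) and Stat5a was at -0.04. Leprot, which shares its first exons with Lepr, was at 21.2 to 27.6 with pioglitazone and 16.0 to 28.7 with vehicle.

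The adiponectin list, with AMPK subunits, the adaptor Appl1 and the binding protein T-cadherin, had 0 of 14 genes called and a median of -0.04. Cdh13 (T-cadherin), which binds adiponectin on vessels, had means of 0.223 ± 0.105 with pioglitazone and 0.123 ± 0.042 with vehicle, 1 of 4 pioglitazone mice and all 4 vehicle mice being under 0.2, and the groups overlapped. Cdh13 was tested only because its pioglitazone mean reached 0.2. Without pioglitazone mouse 3, the 1 pioglitazone mouse under 0.2, it was called, at a log2 fold change of 1.21. With all vehicle values under the limit, that is no measure of a fold. With values under 0.2 raised to 0.2 and all mice kept, the log2 fold change was 0.32. The AMPK subunit genes Prkab1 and Prkag1 had log2 fold changes of -0.32 and -0.29, and Paqr4, a relative of the adiponectin receptors, -0.21. Prkab1 was at -0.088 and Prkag1 at 0.063 without pioglitazone mouse 1. Prkag1 was at 1.44 in pioglitazone mouse 1, and at 3.46 to 4.32 in the other pioglitazone mice and 2.95 to 4.50 in vehicle mice.

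Among 24 other adipokines, Retnla (RELMα) was the 1 called higher, with a log2 fold change of 1.36, and Angptl4, which inhibits lipoprotein lipase, the 1 called lower, with -0.64. Both kept their call with each mouse left out in turn. Retnla was at 3.66 in pioglitazone mouse 1 and at 2.02 to 4.90 in the other pioglitazone mice, against 0.899 to 1.73 in vehicle mice, so that pioglitazone mouse 1 lay within the range of its group. Serpina12 (vaspin) was at 3.71 to 5.09 with pioglitazone and 4.82 to 7.49 with vehicle (log2 fold change -0.35, unadjusted p = 0.0789 in limma). Tgfb1 had a log2 fold change of -0.53 (unadjusted p = 0.0707 in limma). Both Serpina12 and Tgfb1 were called under the replicate block.

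Of 12 tested receptors of these other adipokines, Aplnr, the apelin receptor of vessels, was the 1 called. Aplnr was at 1.07, 1.09, 1.37 and 1.41 in pioglitazone mice 1 to 4, and at 0.922, 0.959, 0.999 and 0.939 in vehicle mice 1 to 4. The groups did not overlap (1.45% of probes were higher without overlap), and the log2 fold change was 0.36 (standard error 0.14, unadjusted p = 0.0321, adjusted p = 0.837 in limma). Its call was lost without vehicle mouse 1 (0.34), 2 (0.36) or 4 (0.35) or pioglitazone mouse 3 (0.31) or 4 (0.29). Apln, the ligand, was at 1.59 to 7.73 with pioglitazone and 3.47 to 9.41 with vehicle, with overlapping groups.

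The list of fatty acid binding proteins, which also held fatty acid transporter genes such as Slc27a1, had 8 genes tested. Of these, Fabp9, a testis fatty acid binding protein, was called. Fabp9 was at 0.476, 0.433, 0.490 and 0.508 in pioglitazone mice, and at 0.284, 0.158, 0.430 and 0.370 in vehicle mice, with groups that did not overlap by a margin of 0.433 against 0.430 (log2 fold change 0.71, unadjusted p = 0.0323, adjusted p = 0.837 in limma). That call was lost without pioglitazone mouse 1, 3 or 4 or vehicle mouse 1 (log2 fold changes of 0.68 to 0.71) and with the methods' t-test. Without vehicle mouse 2, which was under the limit, the log2 fold change was 0.42. Fabp1 and Fabp2 were under 0.2 in all 8 mice.

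In the list of retinol carriers and retinoid enzymes, which act on the vitamin that Rbp4 transports, 2 of 16 genes were called lower. Rara, the retinoic acid receptor alpha, was at 7.58, 7.58, 7.37 and 6.33 in pioglitazone mice, and at 10.4, 9.42, 11.4 and 8.45 in vehicle mice. Its groups did not overlap (3.13% of probes were lower without overlap), the log2 fold change was -0.45 (standard error 0.15, unadjusted p = 0.012, adjusted p = 0.837 in limma), and the call held with each mouse left out in turn. Rbp3, the retinoid carrier of the retina, had means of 2.15 ± 0.12 with pioglitazone and 2.71 ± 0.28 with vehicle (log2 fold change -0.33, adjusted p = 0.837 in limma). The call of Rbp3 was lost without pioglitazone mouse 2, 3 or 4 or vehicle mouse 1, 2 or 3 (log2 fold changes of -0.35 to -0.28), with quantile normalization and under the replicate block. Aldh1a2, which makes retinoic acid, had a log2 fold change of -0.69 (unadjusted p = 0.0644 in limma) and was called under the replicate block.

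The alternative complement pathway, in which adipsin (Cfd) cleaves factor B, had 0 of 9 genes called and a median of 0.06. Cd55, a brake on complement at the cell surface, came closest, with means of 5.10 ± 1.65 with pioglitazone and 7.89 ± 2.54 with vehicle (log2 fold change -0.64, unadjusted p = 0.0515 in limma), and was called under the replicate block, as was Hc (complement C5) at 0.47.

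Of 14 tested genes of NAD salvage and sirtuins, which work with Nampt, 1 was called lower. The median log2 fold change was -0.17, and 11 of the 14 were negative. Sirt6, a nuclear NAD-dependent deacylase, was at 3.35, 3.11, 3.18 and 1.88 in pioglitazone mice, and at 4.20, 4.27, 8.41 and 3.06 in vehicle mice, so that the groups overlapped (log2 fold change -0.72, unadjusted p = 0.0454, adjusted p = 0.837 in limma). Its call was lost without any 1 of pioglitazone mice 2, 3 and 4 or vehicle mice 1, 2 and 3 (log2 fold changes of -0.78 to -0.44), with quantile normalization and with the methods' t-test. Sirt2 was at 33.4 in pioglitazone mouse 1 and 21.6 to 23.6 in the other pioglitazone mice, against 24.3 to 40.9 in vehicle mice.

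**Figure D5:**
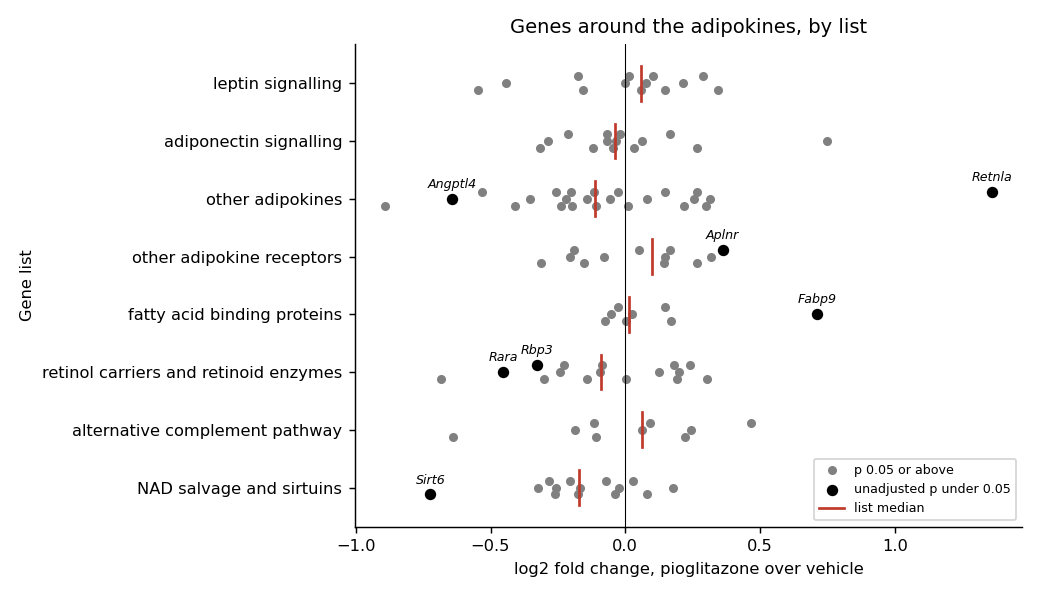
Log2 fold changes (horizontal axis, pioglitazone over vehicle) of the tested genes in 8 lists around the adipokines. Each point is a gene, black points were at unadjusted p under 0.05 in limma and are named, and red bars are list medians. Retnla lies farthest to the right at 1.36, and the list medians lie between -0.17 and 0.10.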

How the data were processed

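Ovarian RNA of 4 pioglitazone-treated and 4 vehicle-treated LY mice was measured on 1-colour CodeLink arrays. The authors took intensities from the slides with background correction in CodeLink software and set the 50th percentile of every slide to 1 in GeneSpring 7.0. The deposited values are linear intensities with array medians of 1.007 to 1.014, and -9999 marks a missing spot. A further scaling to the median of each gene, named in the methods, was not visible.

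Here arrays were rescaled to a median of 1, with a floor of 0.05 before log2, and compared in limma 3.58.1 (R 4.3.3, lmFit and eBayes, Benjamini-Hochberg adjustment over all probes tested). Tested probes had 3 or more values per group and averaged 0.2 or more in 1 group. Of 36227 probes, the platform annotation assigned 21615 to 1 gene, 681 to several and left 13931 unnamed. Listed genes entered with their brightest probe. Single genes had a 2-sided exact permutation test, and 15 pairs of members had correlations with exact permutation p. Member genes, the 18 gene lists (10 of cell type markers) and the rule for named genes were chosen with earlier results of these data known. The rule takes all members, up to 4 genes per pathway list by smallest p, any adipocyte marker and the 5 genes most like each member. Leprot, Apln, Ucp1, Inhbb, Star, Cyp11a1, Hsd3b1, Lyz2, Mrc1, Bmp15, Zp3, Gdf9, Nlrp5, Fabp1 and Fabp2 fall outside it and were chosen after their values were seen.

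Arrays with the same replicate number correlated at 0.515, 0.181, 0.274 and 0.232 after removal of group means. Pioglitazone mouse 3 with vehicle mouse 2 was at 0.369, above the same-number values of mice 2 (0.181) and mice 3 (0.274). All other pairs of differing number lay between -0.528 and 0.157. The number was taken to pair the arrays, from the data only, and these values do not settle that pairing. Results under the replicate block rest on that choice. Alternatives were the floor, quantile or no scaling, the filter, the methods' t-test, the replicate block and mice left out. Code for the limma comparison was tested on simulated data.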

Additional observations from a re-analysis of the deposited data

Results flagged for a closer look

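Within-group values far from the other 3 mice were looked for in the members, the adipocyte markers and the named genes of the lists, by Dixon's ratio on linear values (above 0.829). That cut flags about 5% of groups when values are normal and groups independent, and 14 values were found in 118 groups. Linear intensities need not be normal, some of these genes varied together, and the list genes were picked by smallest p. The 5% is therefore no chance rate for these groups, and no excess over chance can be read from the count. Of these, 7 were the highest value of pioglitazone mouse 1, in Lep (2.06, the others 0.0803 to 0.126), Adipoq (40.2, the others 1.54 to 7.19), Retn (18.3, the others 0.944 to 2.78), Sncg (6.21, the others 0.920 to 1.47), Orm1 (2.23, the others 0.333 to 0.391), Adig (0.680, the others 0.316 to 0.366) and Sirt2 (33.4, the others 21.6 to 23.6). Vehicle mouse 2 stood above the other vehicle mice in Retn (7.29, the others 1.46 to 1.84) and Sncg (3.10, the others 1.18 to 1.45), and vehicle mouse 1 in Cebpa (0.981).

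Vehicle mouse 3 was far below the other vehicle mice in Lep (0.0580, the others 0.350 to 0.392) and Jak2 (0.661, the others 1.79 to 1.89). Pioglitazone mouse 4 was the lowest of its group in Serpina12 (3.71) and Sirt6 (1.88).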

How the results depend on the processing

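None of the 6 genes Lep, Adipoq, Fabp4, Rbp4, Nampt and Adipor2 was called at unadjusted p under 0.05 under any alternative run, the replicate block included. The count over all probes was 1685, against 2635 with the replicate block, and 740 (without pioglitazone mouse 4) to 2445 with 1 mouse left out. For pathway genes it was 7, against 12 with the replicate block, and 3 (without pioglitazone mouse 4 or vehicle mouse 1) to 11 (without pioglitazone mouse 1). The count of correlated pairs was 1, and 0 without pioglitazone mouse 1 or 4 or vehicle mouse 2, and 0 without pioglitazone mouse 1 and vehicle mouse 2 together, an alternative chosen after seeing the data.

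Signs near 0 turned. With 1 mouse or that pair left out, log2 fold changes ran from -1.17 to 0.39 for Lep, -0.86 to 0.71 for Adipoq, -0.52 to 0.50 for Fabp4, -0.37 to 0.29 for Rbp4, -0.46 to 0.39 for Nampt, -0.031 to 0.44 for Cfi, -0.21 to 0.11 for Fabp7, -0.024 to 0.59 for Jak2, -0.0050 to 0.47 for Masp1, -0.47 to 0.17 for Prkag1, -0.0064 to 0.32 for Slc27a1 and -1.0 to 0.10 for Stat5a. Lep was at 0.17 with values under 0.2 raised to 0.2, and Rbp4 at 0.049 with quantile normalization. The causes were not tested. Each member had 1 probe, so a mean over probes gave nothing further. Values near the limit of 0.2, as for Lep, Cdh13 and Aqp7, are limited by signal over background.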
